A study of Mus musculus with 3 samples.

Results

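The CCN family and genes commonly read as targets of the YAP co-activator were examined in cultured mouse cells, labelled as primary endothelium from the cavernous (erectile) tissue of the penis. The 7 genes were Ccn1 (also written Cyr61), Ccn2 (Ctgf), Ccn3 (Nov), Ccn4 (Wisp1), Ccn5 (Wisp2), Ankrd1 and Amotl2, found by name among the probes of the array. The set was chosen with earlier results of these data known, so its counts are not those of an unselected set. All 7 were found among 20886 named genes, on 8 probes: 6 genes had 1 probe each and Ccn4 had 2. Each probe was printed as 1 spot per array, and all 8 were well above background on all 3 arrays.

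The cells came from C57BL/6 mice and were grown in medium with serum, heparin and vascular endothelial growth factor A. They were kept for 48 h in normal glucose (5 mmol as labelled), in high glucose (30 mmol) or in high glucose with added DKK2 protein. Dickkopf 2, or DKK2, is a secreted protein that binds Wnt co-receptors. The labels state no dose. For each condition RNA from 3 samples was combined and labelled with Cy3, so each condition had 1 single-colour array. No difference below therefore has a replicate check or a p-value, and all errors are technical. The animals' age, and whether the pooled samples came from separate cultures, are not stated in the sources used here.

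CCN proteins are secreted, cysteine-rich matrix-associated proteins that bind integrins and heparan sulphate and tune how cells respond to growth factors and to the matrix around them. Ccn1 and Ccn2 are direct targets of the Hippo pathway: when its kinases are quiet, as in spread cells on a stiff surface, YAP and TAZ enter the nucleus and switch on genes through TEAD transcription factors. Serum, TGF-beta and actin dynamics acting through SRF also raise both genes. Ankrd1, which encodes a nuclear ankyrin repeat protein of muscle and endothelial cells, and Amotl2, which encodes a junction-associated scaffold of the angiomotin family that binds YAP and holds it back, are other YAP targets in common use. Ccn4 and Ccn5 carry the older names Wisp1 and Wisp2 because they were found as genes raised by Wnt-1 in mouse mammary cells.

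TEAD factors recognise the letters CATTCC, and these letters are shown in the promoters of the members for which RefSeq promoter sequence was at hand (Ccn1, Amotl2 and Ankrd1, build GRCm38.p6). The 250 bases upstream of a RefSeq start site are printed 5′ to 3′ on the strand of the gene, with CATTCC or its reverse complement GGAATG in capitals.
Ccn1, chr3:145649986-145650235, minus strand: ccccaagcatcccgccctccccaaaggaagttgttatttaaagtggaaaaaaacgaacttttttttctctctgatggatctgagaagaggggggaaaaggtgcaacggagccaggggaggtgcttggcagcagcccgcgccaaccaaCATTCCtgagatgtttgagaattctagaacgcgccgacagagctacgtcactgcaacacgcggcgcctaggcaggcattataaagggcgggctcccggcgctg
Amotl2, chr9:102717554-102717803, plus strand: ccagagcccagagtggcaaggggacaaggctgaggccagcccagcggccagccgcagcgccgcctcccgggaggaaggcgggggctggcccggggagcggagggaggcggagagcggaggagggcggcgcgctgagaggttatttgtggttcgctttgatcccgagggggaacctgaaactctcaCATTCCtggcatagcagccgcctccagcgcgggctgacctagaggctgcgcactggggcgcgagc
Ankrd1, chr19:36119845-36120094, minus strand: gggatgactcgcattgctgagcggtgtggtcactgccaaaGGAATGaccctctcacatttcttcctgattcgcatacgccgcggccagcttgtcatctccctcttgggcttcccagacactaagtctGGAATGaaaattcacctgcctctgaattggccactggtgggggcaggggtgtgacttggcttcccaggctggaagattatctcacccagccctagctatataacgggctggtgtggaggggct
Ccn1 held the match beginning 103 bases before its start and Amotl2 held it 65 bases before. Ankrd1 held 2 matches, both as GGAATG, at 210 and 123 bases. So 3 of 3 member promoters held the letters, against 12.6% of 32851 promoters of the same length, searched on both strands. Ccn1 also held TATAAA at 25 bases, as did 12.4% of promoters when both strands were searched. Neither the AP-1 letters TGANTCA (6.7% of promoters) nor a CArG box, the element read by SRF (1.5%), occurred in these 3 windows. A match describes the letters in the window and not binding, and these genes are listed here because they are known TEAD targets.

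The array in normal glucose was the dimmer one. Its median probe signal was 102, against 196.3 on the high glucose array and 204.6 on the DKK2 array, and its 75th percentile was 1201 against 2383 and 2417. Each signal was therefore divided by the 75th percentile of its array, which gives the scaled signal, and differences are given as log2 of the ratio of scaled signals. The scanner's error model gave a technical SD of 0.20 to 0.21 for a log2 difference of a member, and probes printed as replicate spots had a median spot SD of 0.071 to 0.081 on the log2 scale. A gene is counted below as higher or lower when it differed by at least 2-fold between 2 arrays.

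**Figure D1:**
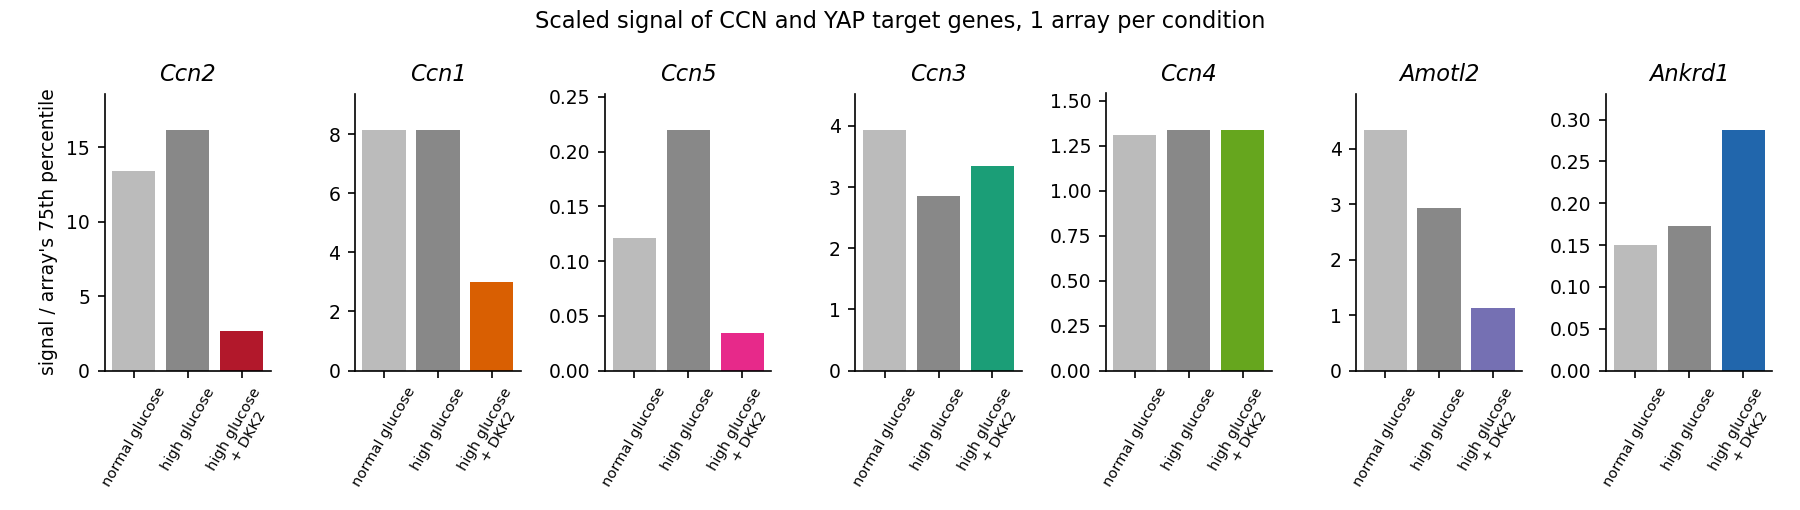
Scaled signal (signal divided by the 75th percentile of the array) of each of the 7 genes on the arrays in normal glucose, high glucose and high glucose with DKK2, as bars from 0 with 1 array each and a separate axis per gene. Ccn2, Ccn1, Ccn5 and Amotl2 have their lowest bar with DKK2, Ankrd1 its highest, and the bars of Ccn4 lie between 1.31 and 1.34.

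With DKK2 in high glucose, 4 of the 7 genes were at least 2-fold lower than in high glucose alone: Ccn5, Ccn2, Ccn1 and Amotl2. None was at least 2-fold higher, and the largest difference upwards was that of Ankrd1. In RNA from a whole culture, fewer cells of a type and less RNA per cell cannot be told apart. Across all 17825 genes measured on these 2 arrays, 4.85% were at least 2-fold lower and 5.09% higher (9.94% in either direction). The median of the 7 log2 differences was -1.37, and the median over all genes was 0.08. Between high and normal glucose none of the 7 reached 2-fold, where 8.39% of 16767 genes did in either direction, and the median of the 7 was 0.03 against 0.08 over all genes.

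Ccn2 encodes connective tissue growth factor, a matrix protein known for its part in fibrosis. The normal glucose, high glucose and DKK2 arrays gave signals of 16041, 38593 and 6389. After scaling these were 13.4, 16.2 and 2.64, so the first 2 arrays lay close together and the DKK2 array stood well below both. The log2 difference with DKK2 was -2.62 (technical SD 0.20), a 6.13-fold lower signal, and only 72 of 17825 genes had a more negative one. Against normal glucose the DKK2 array was lower by 5.05-fold (log2 -2.34, SD 0.20). The glucose difference itself was 0.28 with an SD of 0.20, within 2 technical SDs of 0. The DKK2 array was lower than the normal glucose array before any scaling too, although its overall brightness was the greater.

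Ccn1 encodes a family member that is an immediate early gene of serum stimulation and promotes endothelial adhesion and vessel growth. In the same order of arrays its signals were 9781, 19430 and 7245, or 8.14, 8.15 and 3.00 after scaling. Normal and high glucose were thus alike in scaled signal, with a log2 difference of 0.00 and bounds of -0.41 to 0.41 at 2 technical SDs. With DKK2 the gene was 2.72-fold lower than in high glucose (log2 -1.44, SD 0.20), and 2.3% of genes lay further down. The interval of 2 SDs for Ccn1, -1.85 to -1.04, did not overlap that of Ccn2, -3.02 to -2.21, so the difference was smaller for Ccn1 than for Ccn2 beyond the technical error.

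Ccn5 lacks the C-terminal domain that the other CCN proteins carry and is known to oppose Ccn2 in fibrosis and to restrain smooth muscle growth. Its probe was dim, with signals of 145.2, 524.5 and 82.89 on the normal glucose, high glucose and DKK2 arrays, or 0.121, 0.220 and 0.0343 after scaling. The 3 arrays stood apart from each other, with high glucose highest and DKK2 lowest. With DKK2 it was 6.42-fold lower than in high glucose (log2 -2.68, SD 0.21), and 60 of 17825 genes had a more negative difference. With normexp background correction, which adds a fixed offset to each signal, this difference was -1.92. In high glucose against normal glucose it was 0.86 (SD 0.21), the largest glucose difference upwards among the 7 genes, with 4.6% of all genes above it, but it was 0.17 with normexp. Without scaling the DKK2 signal was below the one in normal glucose as well, and the scaled difference was -1.82 (SD 0.21).

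Ccn3 encodes a growth-restraining CCN protein that is made by endothelial cells and can bind Notch1. Its signals on the 3 arrays, in that order, were 4731, 6783 and 8097, which became 3.94, 2.85 and 3.35 after scaling. The order of the scaled values thus differs from that of the raw ones, and normal glucose was highest. The glucose difference was -0.47 (SD 0.20), and the DKK2 difference was 0.24 (SD 0.20), which lies within 2 technical SDs of 0. With DKK2, Ccn3 was therefore placed apart from Ccn1, Ccn2 and Ccn5, since its interval of -0.17 to 0.64 overlapped none of theirs.

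Ccn4, a Wnt-1-induced CCN protein of fibroblasts and bone, barely differed between the arrays. The brighter probe read 1575, 3192 and 3236 in normal glucose, high glucose and DKK2, or 1.31, 1.34 and 1.34 after scaling. The second probe read 582.6, 1036 and 1152, or 0.485, 0.435 and 0.477. Both probes stayed within 2 technical SDs of 0 in all 3 comparisons. The glucose difference was 0.03 on the first and -0.16 on the second, and the DKK2 difference was 0.00 and 0.13 (SD 0.20 each). This is the 1 member whose values could be set against another probe of the same gene.

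Amotl2 read 5219, 6960 and 2734 on the arrays of normal glucose, high glucose and DKK2, and 4.34, 2.92 and 1.13 after scaling. The scaled values ran downwards over normal glucose, high glucose and DKK2, and each step lay beyond 2 technical SDs. The glucose difference was -0.57 (SD 0.20), short of 2-fold. The DKK2 difference was -1.37 (SD 0.20), or 2.58-fold, close to that of Ccn1, whose interval it overlapped (-1.78 to -0.96). Against normal glucose the DKK2 array was 3.84-fold lower (log2 -1.94, SD 0.20), the second most negative of the 7 genes after Ccn2.

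Ankrd1 went the other way. Its signals were 179.8, 413.2 and 697.1 in the order of arrays used above, or 0.150, 0.173 and 0.288 after scaling, so the DKK2 array was highest. The DKK2 difference was 0.73 (SD 0.20), a 1.66-fold higher signal that did not reach 2-fold, and 9.3% of all genes lay above it. Its 2-SD interval, 0.33 to 1.14, did not overlap the intervals of Ccn1 or Amotl2, the members whose promoters carry the same TEAD letters as printed above. Against normal glucose the difference was 0.95 (SD 0.20), or 1.93-fold, and 0.47 with normexp. The glucose difference was 0.21 (SD 0.20), within 2 technical SDs of 0, and had the opposite sign with normexp, at -0.20.

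**Figure D2:**
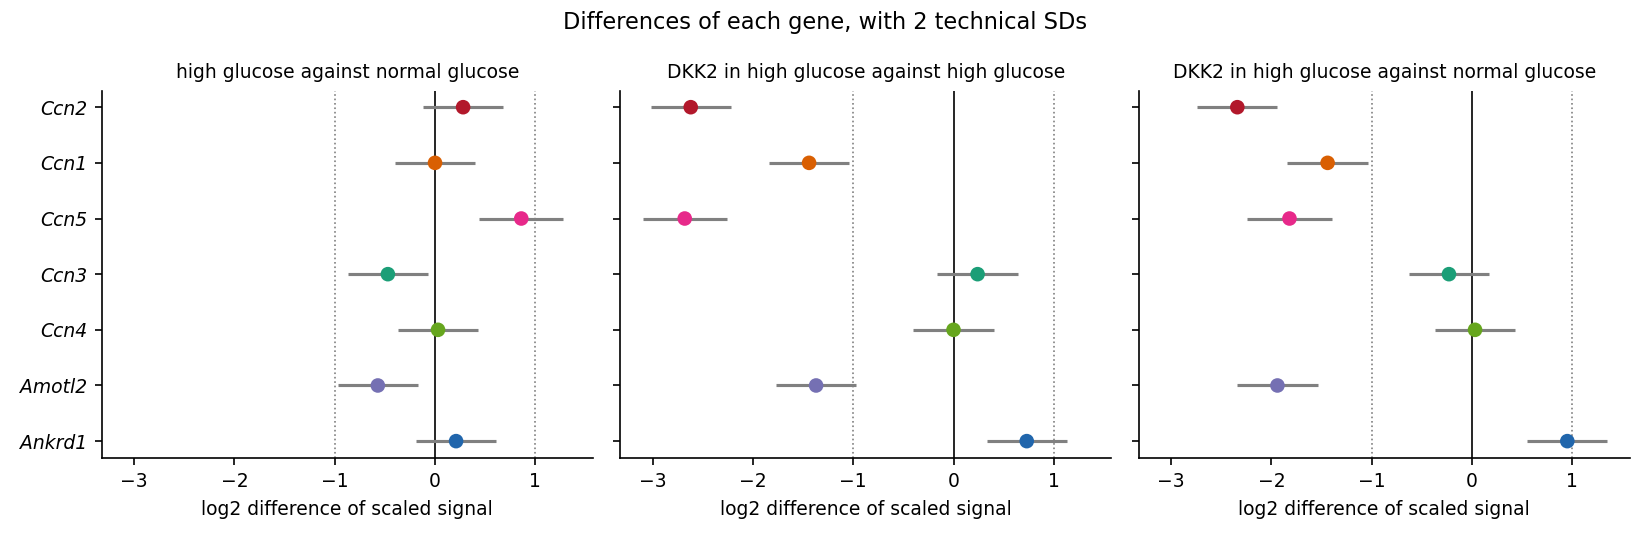
Log2 difference of scaled signal for each gene (points) with 2 technical SDs to each side (bars) in the 3 comparisons, where dotted lines mark 2-fold. In both comparisons that involve the DKK2 array, Ccn2, Ccn5, Ccn1 and Amotl2 lie beyond the lower dotted line, Ccn3 and Ccn4 lie near 0, and Ankrd1 lies above 0 at 0.73 and 0.95.

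Set against normal glucose, the DKK2 array had the same count, with 4 of 7 genes at least 2-fold lower and none at least 2-fold higher. In that comparison 10.3% of 16677 genes were lower and 10.5% higher (20.8% in either direction), and the median was -1.44 over the 7 genes and 0.12 over all genes. The 2 comparisons share the DKK2 array, so the second is not a separate measurement. The order of the 4 lower genes by size was Ccn2 at -2.34, Amotl2 at -1.94, Ccn5 at -1.82 and Ccn1 at -1.44. Neighbours in this order overlapped within 2 technical SDs, while the intervals of Ccn2 and Ccn1, -2.74 to -1.93 and -1.85 to -1.03, did not.

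**Figure D3:**
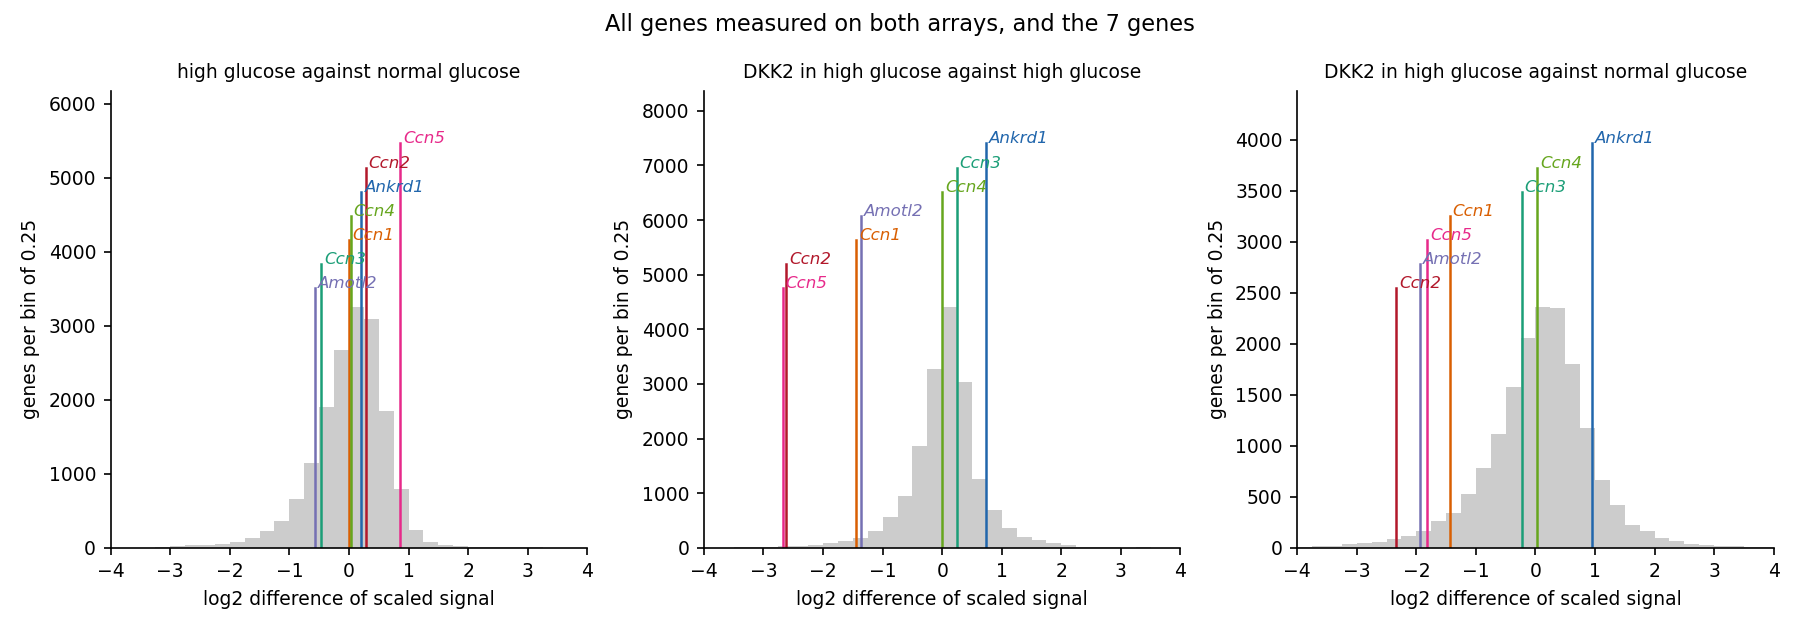
Number of genes per 0.25-wide bin of the log2 difference of scaled signal (grey) in each comparison, with a coloured line at the value of each of the 7 genes (line heights only separate the names). With DKK2 in high glucose, Ccn5 and Ccn2 lie in the far lower tail at -2.68 and -2.62, and in the glucose comparison all 7 lie between -0.57 and 0.86, with Ccn5 at the upper end, just past the 95th percentile of all genes (0.85).

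The genes with the most similar pattern were found by the Euclidean distance between pairs of log2 differences (glucose and DKK2) over these 3 arrays, among 15684 named genes measured on all of them. Ccn5 and Ccn2 had few close neighbours: 3 and 7 genes lay within a distance of 0.2. Such counts largely restate how far a gene lay from the bulk of genes. The nearest to Ccn5 was Palmd, at 0.86 and -2.68, followed by Dnah2 and Ubd. Among the nearest to Ccn2 were Ear2, at 0.30 and -2.65, and Bpifb5, at 0.33 and -2.52. Amotl2 had 35 such neighbours, led by Plac9a at -0.60 and -1.34 and by Ebf1, and Ccn1 had 44, led by Prokr1 and Cldn1. The patterns of Ankrd1 (307 neighbours, led by Foxi3), Ccn3 (716, led by Sva) and Ccn4 (1342, Gabpb2 and Hbegf among the nearest) were common ones. None of the 7 was among the 3 nearest of another. Several of the neighbours named here were dim. On the normal glucose, high glucose and DKK2 arrays Palmd read 34.8, 125 and 19.8, and Bpifb5 read 22.3, 55.6 and 9.85. Others were bright, such as Plac9a at 5305, 6926 and 2773. The difference of Ccn5, also dim, moved with the background correction, and this was not checked for its neighbours.

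The genes of the Hippo pathway and its effectors lay on both sides of 0 with DKK2. Of 31 listed genes, all measured, 2 were higher and 2 lower, with a median difference of -0.04 against 0.08 over all genes. Over all genes 5.09% were higher and 4.85% lower, the shares to set beside the DKK2 counts of each list below. Yap1, the co-activator gene, read 13889, 35820 and 31694 in normal glucose, high glucose and DKK2, a DKK2 difference of -0.20. Wwtr1, which encodes TAZ, read 3130, 11975 and 16988 and was at 0.48. Among the TEAD genes, Tead1 was at -0.05, Tead2 at -0.24, Tead3 at 0.15 and Tead4, on a dim probe, at 0.80. The higher genes were Ptpn14, a phosphatase gene whose product restrains YAP, at 1.23, and Amotl1, a relative of Amotl2 in the angiomotin family, at 1.07. The lower ones were the giant cadherin gene Fat4 at -1.25 and the TEAD cofactor gene Vgll3 at -1.16.

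In the glucose comparison the same list had 3 higher genes and 1 lower, with a median of 0.20. Over all genes 2.66% were higher and 5.73% lower, the shares to set beside the glucose counts of each list below. The higher ones were the TEAD cofactor gene Vgll4 at 1.49, the kinase adaptor gene Mob1a at 1.19 and Fat4 at 1.01, and the lower one was the kinase gene Taok2 at -2.02, whose other probe read 0.14. Yap1 was at 0.38 and Wwtr1 at 0.95. Against normal glucose the DKK2 array had 7 of the 31 higher and 3 lower, Wwtr1 among the higher at 1.43. Over all genes 10.5% were higher and 10.3% lower in that comparison.

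Other genes known as YAP and TAZ targets, taken from a signature of human tumours, were mixed. Of 18 such genes besides the members, 4 were at least 2-fold lower with DKK2 and 1 higher, with a median of -0.11, and 8 of 18 lay above 0. The lower ones were Igfbp3, a secreted binding protein of insulin-like growth factors, at -1.79, the RhoA activator gene Arhgef17 at -1.31, the RNA-binding protein gene Rbms3 at -1.14 and the matrix protein gene Ccdc80 at -1.07. The probes of Rbms3 ran from -1.34 to -0.75, the latter short of 2-fold. Igfbp3 read 14243, 29704 and 8683, so it had the shape of Ccn1 and Ccn2, with its lowest signal on the DKK2 array. Ptpn14, which is in both lists, was the higher one. The receptor tyrosine kinase gene Axl was at 0.45 and the Hippo kinase gene Lats2 at -0.56, with a second probe at 0.28. In the glucose comparison 1 of 18 was lower and none was higher: the kinase gene Nuak2 lay at the 2-fold limit after scaling, with signals of 1056 in normal and 1045 in high glucose. Of the 12 genes of this list with a promoter in the RefSeq table, 3 held the TEAD letters (Axl, Crim1 and Ptpn14), against 12.6% of all promoters. These are too few to compare with the rest of the list, and a link between the letters and the DKK2 difference was not tested.

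**Figure D4:**
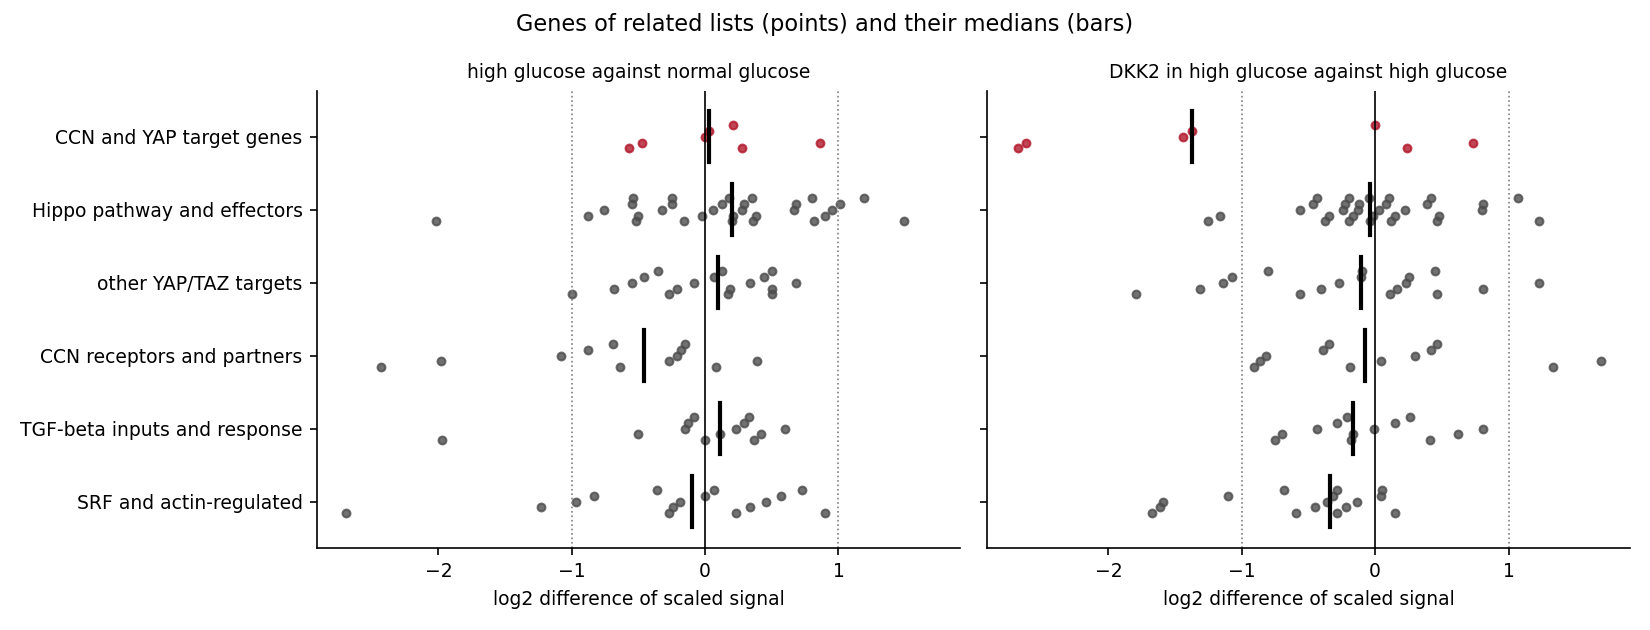
Log2 difference of scaled signal of the 7 genes (red) and of the genes of 5 related lists (grey points), with each median as a black bar and 2-fold as dotted lines, for the glucose comparison (left) and the DKK2 comparison (right). The median of the 7 genes is -1.37 with DKK2, while those of the lists lie between -0.34 and -0.04.

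Of 12 binding partners of CCN proteins, 3 were lower and none higher in the glucose comparison (5.73% and 2.66% of all genes), with a median of -0.46. They were Itga5, an integrin subunit gene for the fibronectin receptor, at -2.43, Notch1 at -1.98, with another probe at -0.30, and Sdc4, a heparan sulphate proteoglycan gene, at -1.08. With DKK2 the median was -0.07, and 2 of 12 were higher: the leukocyte integrin gene Itgb2 at 1.69 and the laminin-binding integrin gene Itga6 at 1.33. The co-receptor gene Lrp6, which serves Wnt signalling and is bound by both DKK2 and Ccn2, was at -0.91.

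TGF-beta and SRF are the other known inputs to Ccn1 and Ccn2. None of 13 TGF-beta genes was 2-fold apart with DKK2, and their median was -0.17. The ligand genes Tgfb1 and Tgfb2 were at 0.62 and 0.81. Tgfb1 was also the 1 gene of the list that was 2-fold apart in the glucose comparison, at -1.97. Of 16 SRF and actin-regulated genes, 4 were lower with DKK2 and none higher, with a median of -0.34 and 3 of 16 above 0. These were the smooth muscle actin gene Acta2 at -1.67, Fhl2, a LIM protein gene, at -1.61, the myosin light chain gene Myl9 at -1.59 and the adhesion plaque gene Vcl at -1.10. Srf itself was at -0.32, with another probe at 0.09. In the glucose comparison 2 of the 16 were lower, the alpha-actinin gene Actn1 at -2.69 and the caldesmon gene Cald1 at -1.23.

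Markers of several cell types moved with the DKK2 array, and their part in the result was not tested. The median signal of the endothelial markers on the 3 arrays was 81, 454 and 240 before scaling, with the normal glucose array the dimmer one. After scaling, the median glucose difference of the 14 measured on both arrays was 0.47, with 5 higher and none lower. Kdr and Eng read brighter, with Kdr, a receptor gene for vascular endothelial growth factor, at 3648, 9128 and 10901, while Erg and Emcn were not well above background in normal glucose. Of 15 measured with DKK2, 5 were lower, none was higher and 6 lay above 0, with a median of -0.28. The summed scaled signal of the list was 6.08, 6.90 and 7.22 on the 3 arrays in that order, and 3.04, 3.07 and 2.71 without Kdr, so its direction with DKK2 rests on that gene. The brightest probe of Kdr was at 0.24 with DKK2 and its other probe at -0.12. All 12 fibroblast markers were well above background on every array, with Col1a2 at 177021, 303111 and 247551. The median signal of the fibroblast markers before scaling was 23400, 60900 and 38300, above that of the endothelial markers on each array. Their summed scaled signal was 586, 537 and 390, and with DKK2 none of the 12 was above 0 and 4 were at least 2-fold lower, led by Mfap4 at -4.32. Smooth muscle and pericyte markers summed to 94.2, 60.2 and 38.4, with 1 of 9 lower with DKK2. The lower one was Acta2 at -1.67, also in the SRF list above. It was the brightest marker of this list in normal and in high glucose, so it weighs heavily in the sum.

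Of 9 macrophage markers measured with DKK2, 5 were at least 2-fold higher, with Fcgr3 at 2.10, and none was lower. The brightest probe of all 9 lay above 0, but Itgam was at 0.04 and had another probe at -1.14, and Csf1r was at 0.97 with another probe at -0.14. Their summed scaled signal was 26.9, 18.4 and 23.8, and 2.35, 2.72 and 7.63 without Itgam, and Cd68 was not measured here. Adipocyte markers had 5 of 8 lower with DKK2, with Adipoq at -6.20, and 2 above 0, Cidec at 0.33 and Lep at 0.18, both dim. Their summed scaled signals were 19.9, 27.0 and 10.1. Skeletal muscle markers had 3 of 6 measured lower, with summed scaled signals of 2.04, 1.64 and 0.575. The condition and the position of the array on the shared slide cannot be told apart.

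**Figure D5:**
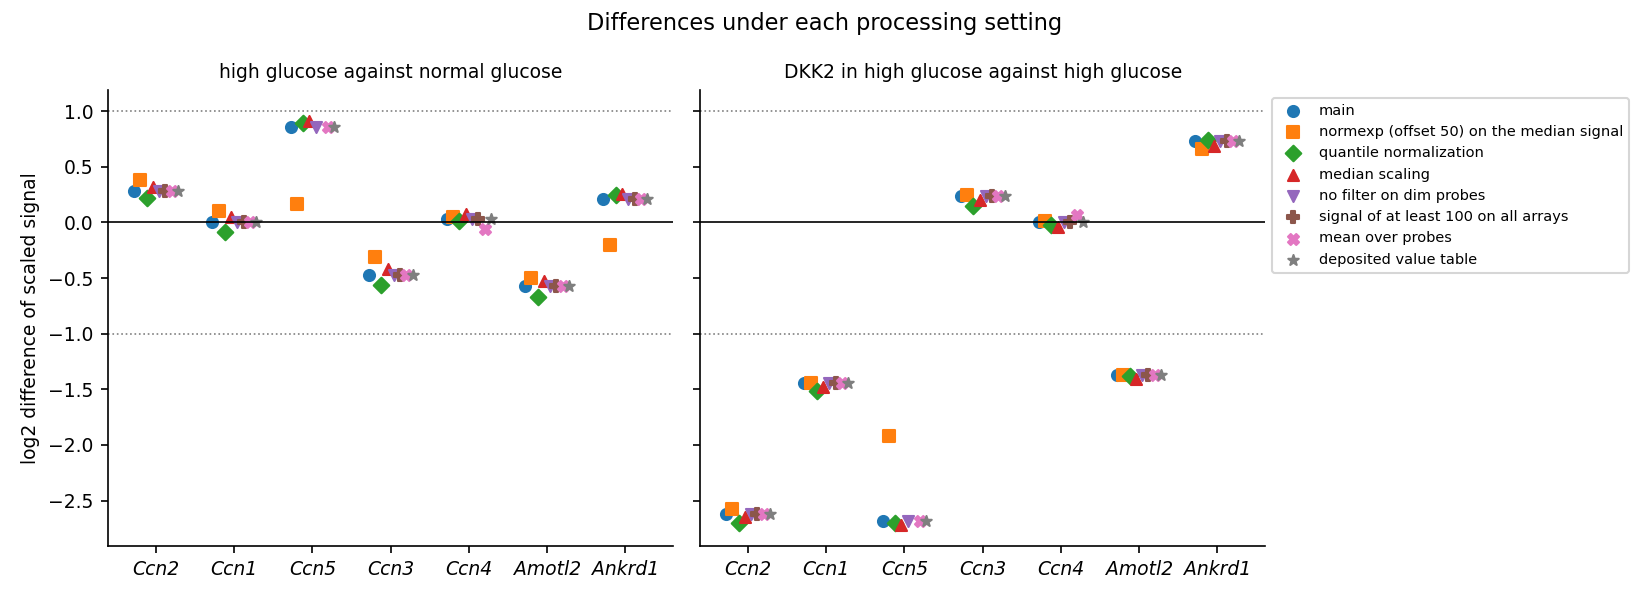
Log2 difference of each gene under the main setting and 7 processing alternatives (symbols) for the glucose comparison (left) and the DKK2 comparison (right), with 2-fold as dotted lines. With DKK2 the points of each gene lie close together except for Ccn5, which moves from -2.68 to -1.92 with normexp, and Ccn5 and Ankrd1 move by most in the glucose comparison.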

How the data were processed

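Gene expression was measured on 3 single-colour Agilent mouse arrays, 1 per condition, and groups were read from the titles. The quantification software, per the file headers, was Feature Extraction 11.5.1.1. The deposited scanner files hold intensity on a linear scale: a processed, background-corrected signal with its error and flags. The deposited value table also holds intensity and equalled the scanner's signal within a fraction of 0.001 for 99.1% of probes. Its column medians were 102, 196.3 and 204.6, its scale is linear, and no centring or direction applies. The number of arrays limits the precision.

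Of 44397 spots, 1377 control spots and 110 to 136 outlier spots per array were left out, and no spot was saturated. Log2 signals were averaged over the spots of a probe, and the 75th percentile of the array was subtracted. Accessions were matched to symbols with a RefSeq table of build GRCm38.p6, for names only, since the file headers give mm9 (27508 of 39429 probes matched 1 symbol). Each gene was read on its brightest probe among those well above background (at least 50% of spots) on 1 array or more, counted where it was so on both arrays. The technical SD of a difference combines the scanner errors of both spots. The counting was tested on simulated data. Genes named in the text are the 7 members, up to 3 rises and 3 falls per list and comparison, a few regulators and the 3 nearest in pattern; Ccdc80, Vcl, Axl, Crim1, Lrp6 and the cell type markers named were picked after their values were seen. Some genes that the rule takes are left out of the text. Members and lists were chosen with earlier results of these data known. The alternatives were normexp (offset 50), quantile normalization, median scaling, no filter and a stricter filter on dim probes, the probe mean per gene, the authors' table in place of the scanner files, and limits of 1.5-fold and 3-fold. Tools were R 4.3.3, limma 3.58.1, Python 3.11.15, numpy 2.4.6, pandas 2.3.3 and matplotlib 3.10.9.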

Additional observations from a re-analysis of the deposited data

How the results depend on the processing

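No paired analysis was possible because each condition had 1 array. For the 7 genes, 140 of 144 log2 differences under the 7 alternatives to scaling, filter, probe rule and source moved by less than 1 technical SD. The 4 others came with normexp: Ccn5 at 0.17 and Ankrd1 at -0.20 in the glucose comparison, Ccn5 at -1.92 with DKK2 in high glucose, and Ankrd1 at 0.47 for DKK2 against normal glucose. The count of 4 lower genes with DKK2 became 2 of 7 at 3-fold (Ccn2 and Ccn5; 1.8% of all genes), and the count of 0 in the glucose comparison became 1 of 7 at 1.5-fold (Ccn5, higher, as were 13.9% of all genes). With a signal of at least 100 required on all arrays Ccn5 was not measured, and 3 of 6 genes were lower with DKK2 (4.04% of all genes). Normexp moved the median of all genes in the glucose comparison from 0.08 to -0.26 and the genes higher and lower from 446 and 961 to 169 and 3957, and for DKK2 against normal glucose from 1744 and 1724 to 940 and 4017. For DKK2 in high glucose these counts went from 908 and 864 to 508 and 475, so that 2.66% of all genes were lower in place of 4.85%, with 4 of the 7 genes lower in both. It was run on the median spot signal, an alternative chosen after seeing the data; normexp on the mean signal was not run. The signal of Ccn5 with DKK2, 82.89, is the lowest signal of any member.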
